A study of Homo sapiens with 18 samples.

Results

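The metalloproteinases and their inhibitors are described here in human lung cancer cells depleted of YAP or TAZ. They are the 50 genes, of 22219 symbols listed in either of the authors' tables, whose symbol is MMP, ADAM or ADAMTS followed by a number, or TIMP1 to TIMP4. The set holds 16 MMP, 13 ADAM, 17 ADAMTS and 4 TIMP genes, and it was chosen by name and not by any measured value. H1299 lists 43 of them and A549 lists 44, with 37 in both tables. RNA-seq of poly(A) RNA gave 18 libraries, 3 for each of the 6 groups. H1299 is a lung carcinoma line, grown in RPMI-1640. A549 is a lung adenocarcinoma line, grown in DMEM. In each line the cells received 30 nM of an siRNA pool against YAP1 (siYAP), of a pool against WWTR1, the gene of TAZ (siTAZ), or of control siRNA (siControl). Transfection lasted 48 h in all groups, the last 18 h without serum, so every value below is from serum-starved cells. Whether replicates came from separate cultures is not in the labels. The spread on which every p-value below rests is therefore that of the sequenced libraries, and it could be technical. Cell line, medium and experiment cannot be told apart.

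YAP and TAZ are coactivators without DNA-binding domains of their own that act largely through TEAD transcription factors, often beside AP-1. Metalloproteinases are zinc-dependent enzymes. Secreted and membrane-anchored MMPs cut collagens and other matrix proteins, ADAMs are membrane proteins many of which release growth factors and receptors from the cell surface, and ADAMTS enzymes are secreted and process collagens, proteoglycans and microfibril proteins. TIMPs bind the active sites of many of these enzymes and block them. The enzymes are also controlled after translation, by release of the propeptide and by inhibitors, which mRNA counts do not measure.

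The libraries held 16.8 to 20.8 M assigned reads in H1299 and 10.7 to 45.0 M in A549. The pools left 15.7%, 24.0% and 14.3% of the mean control level of YAP1 in H1299 siYAP libraries 1, 2 and 3, and 14.0%, 32.2% and 11.3% of that of WWTR1 in H1299 siTAZ libraries. In A549 they left 29.1%, 26.5% and 33.5% of YAP1 and 40.0%, 28.8% and 29.2% of WWTR1. CDKN2A, which A549 is known to lack, is not listed for A549 and averaged 97.6 ± 10.1 CPM in H1299 controls (CPM, reads scaled to a common library size with TMM factors; SD, n = 3). Of 5 epithelial markers H1299 lists 4 and not CDH1, with a summed level of 396 to 444 CPM in controls, 60.4% of it KRT18, while KRT19 (0.25 ± 0.14 CPM) and EPCAM (0.15 ± 0.04 CPM) were near 0. A549 lists all 5, with a sum of 4522 to 5810 CPM in controls, including KRT19 at 287 ± 23.0 CPM and EPCAM at 3.09 ± 1.89 CPM. Of the leukocyte markers PTPRC, CD3E and MS4A1 are listed in neither table, and the myeloid integrin ITGAM made up most of the level of those listed, at 2.94 ± 1.10 CPM in H1299 controls and 1.99 ± 0.43 CPM in A549 controls. In bulk RNA, fewer cells of a kind and less RNA per cell cannot be told apart. Replicate 3 of A549 stood apart from replicates 1 and 2 in every group (first principal component, 48% of the variance), so A549 was fitted with the replicate number as a block, the design under which a refit returned the authors' fold changes. The pools may not have left the other coactivator unchanged. Under siYAP the log2 change of WWTR1 was -0.51 in H1299 and -0.16 in A549, and under siTAZ that of YAP1 was 0.30 in H1299 and 0.04 in A549. None passed in the main fit. Both H1299 changes passed with the replicate number as a block, and that of WWTR1 in A549 passed under 5 of 18 alternatives.

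In control cells both lines expressed TIMP1, TIMP2, ADAM9 and ADAM15 strongly, and their most abundant MMPs were different ones. Per kilobase of exon, the highest level in H1299 controls was TIMP1, at 201 ± 14.0 CPM per kb (SD, n = 3). TIMP2 followed at 85.8 ± 1.1 CPM per kb, then ADAM9 at 61.5 ± 8.5, the collagenase MMP14 at 51.4 ± 7.7 and the collagenase MMP1 at 43.0 ± 10.7. The ranges of ADAM9 and MMP14 overlapped, as did those of MMP14 and MMP1, while TIMP1, TIMP2 and ADAM15 (21.1 ± 1.9) were each apart from their neighbours. In A549 controls the order began with MMP7, the matrilysin that lung and gut epithelia secrete, at 146 ± 23.3 CPM per kb. TIMP1 (111 ± 9.4), ADAM9 (98.5 ± 5.3) and TIMP2 (64.3 ± 18.7) came next, none overlapping its neighbour, followed by ADAM15 (19.8 ± 4.4) and ADAM10 (16.8 ± 1.1), which overlapped.

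Of the 33 members tested in both lines together, 30 differed between H1299 and A549 controls, against 78.5% of all genes tested, 15 higher (40% of all genes) and 15 lower (38.5%) in H1299. MMP14, a membrane-anchored collagenase that activates MMP2, stood at 219.8, 236 and 175 CPM in H1299 controls and at 2.32, 2.37 and 1.39 CPM in A549 controls, on the scale common to both lines. The log2 difference was 6.74 ± 0.14 (SE; adjusted p = 4.2e-19). MMP1, which cuts fibrillar collagens, was 6.73 ± 0.27 higher in H1299 (adjusted p = 1.9e-14). ADAMTS6 (6.25 ± 0.24), the stromelysin MMP10 (5.82 ± 0.41) and the membrane-anchored MMP16 (5.27 ± 0.28) completed the 5 largest differences towards H1299. MMP7 went the other way, with 0.11, 0.27 and 0 CPM in H1299 controls, which is 2, 5 and 0 reads, against 336, 368 and 458 CPM in A549 controls. Its fitted log2 difference of -11.54 depends on how near-zero counts are handled. MMP10 and MMP13 had at most 9 and 7 reads in any A549 library, and MMP28 at most 11 in any H1299 library. Like MMP7, they were too low to test in that line alone and entered the joint fit through their level in the other line. Their fitted sizes have the same limit, and the count of 30 includes them. ADAMTS10, a microfibril-associated member, was -6.85 ± 0.18 (adjusted p = 2.0e-17), MMP24 -4.42 ± 0.18, ADAMTS7 -4.27 ± 0.16 and ADAM12 -4.09 ± 0.31. In H1299 controls ADAMTS10 averaged only 0.074 and ADAM12 0.045 CPM per kb of exon, and in A549 controls ADAMTS6 averaged 0.025. The fitted sizes of ADAMTS10, ADAM12 and ADAMTS6 therefore also rest on few reads in the lower line. TIMP2 did not pass the test, at a log2 difference of 0.14 ± 0.08 (adjusted p = 0.124, or 0.0457 with the replicate number as a block in both lines), and TIMP1 was 0.54 ± 0.07 higher in H1299. Without replicate 3 of every A549 group, an omission chosen after seeing the data, TIMP2 was 0.36 higher in H1299 (adjusted p = 0.0021 in edgeR). The other differences that passed ran from 0.50 (MMP2) to 3.51 (MMP13) towards H1299 and from -0.20 (ADAM15) to -3.65 (MMP15) towards A549. They included ADAM28 (-1.49), ADAM32 (-1.30) and ADAM8 (-0.82), lower in H1299, and ADAMTS16 (0.76), higher. Leaving out 1 library at a time ended only the calls of MMP2 (without H1299 control 2) and ADAM15 (without H1299 control 2 or any A549 control).

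**Figure D1:**
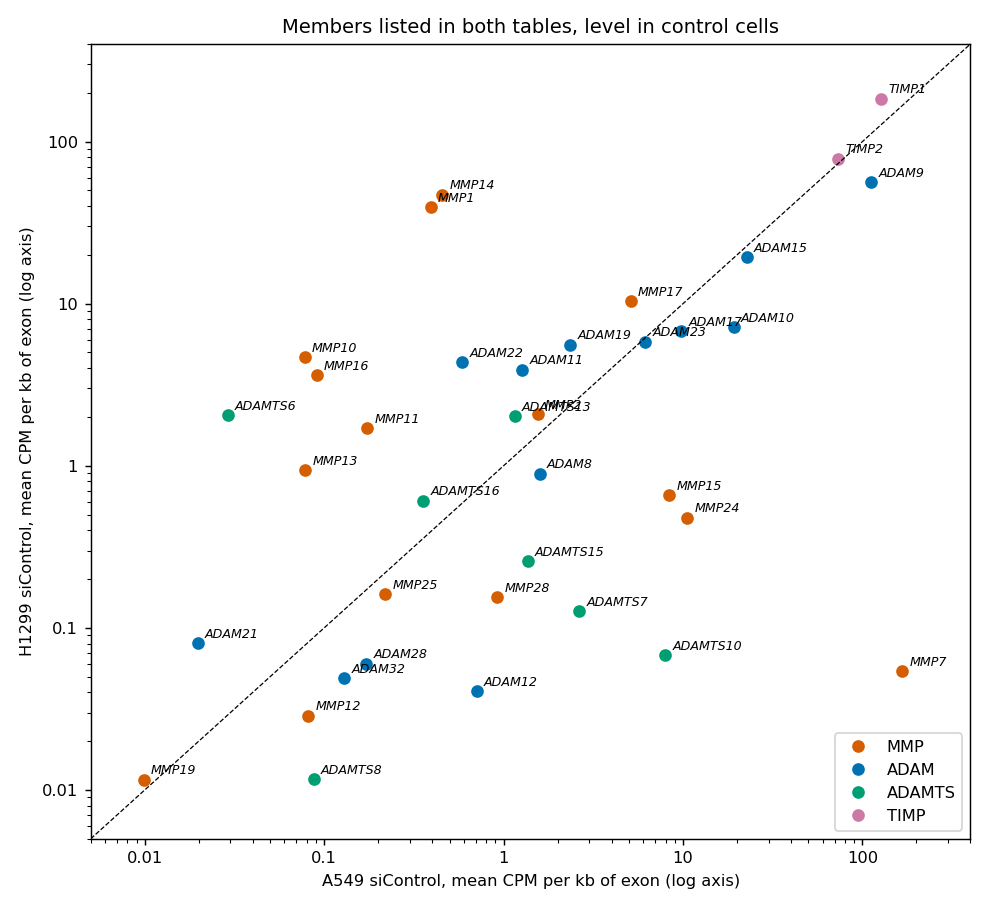
Mean level of each of the 37 members listed in both tables in control cells, H1299 on the vertical and A549 on the horizontal axis, in CPM per kb of exon on the scale common to both lines (log axes, n = 3 libraries each; dashed line, equal levels; colours, families). MMP14, MMP1, MMP10, MMP16 and ADAMTS6 lie far above the line and MMP7 and ADAMTS10 far below it, while TIMP2 lies near it.

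Under siTAZ in H1299, 7 of the 11 tested MMPs rose: the collagenase MMP1, the gelatinase MMP2, MMP10, MMP11 and the membrane-anchored MMP14, MMP15 and MMP17. Of 34 members tested, 14 differed from siControl, or 41.2%, against 23.3% of all genes tested, with 13 higher (10.9% of all genes) and 1 lower (12.4%). The median log2 change was 0.38 over the tested members and 0.0082 over all genes. Of the other families, 2 of 12 ADAMs rose, 2 of 9 ADAMTS genes rose and 1 fell, and both listed TIMPs rose. Under siYAP, 8 of 34 members differed, or 23.5%, against 16.6% of all genes, with 6 higher (7.89%) and 2 lower (8.75%). The median log2 change was 0.12 over the tested members and 0.0063 over all genes. These included 4 of 11 MMPs (3 higher, 1 lower), 1 of 12 ADAMs, 2 of 9 ADAMTS genes (1 in each direction) and 1 of 2 TIMPs. The siYAP and siTAZ comparisons share their control libraries.

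MMP14 had the highest mean level of any MMP in H1299. It stood at 459.7, 403 and 405 CPM in siYAP libraries, at 518, 515 and 532 CPM in siTAZ libraries and at 239.6, 257 and 191 CPM in siControl libraries. Every knockdown library was above every control library, and the siTAZ libraries were the highest. The log2 change was 0.88 ± 0.11 under siYAP (adjusted p = 0.000692) and 1.19 ± 0.11 under siTAZ (adjusted p = 0.00022). MMP17, anchored to the membrane by a lipid, had 56.2, 55.5 and 57.8 CPM in siYAP libraries, 62.6, 52.0 and 66.3 CPM in siTAZ libraries and 42.4, 46.4 and 47.3 CPM in siControl libraries. It rose by 0.32 ± 0.10 under siYAP (adjusted p = 0.0383) and by 0.41 ± 0.10 under siTAZ (adjusted p = 0.00887), again with no overlap with the controls. MMP15, another transmembrane MMP, had 3.21, 1.92 and 2.23 CPM in siYAP libraries, 7.13, 5.27 and 6.70 CPM in siTAZ libraries and 2.24, 3.34 and 3.99 CPM in siControl libraries. It rose under siTAZ alone of the pools, by 0.99 ± 0.23 (adjusted p = 0.00833), with siTAZ libraries above all others. MMP16 and MMP24 did not pass the test under either pool.

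Of the secreted collagenases and gelatinases tested, MMP1 and MMP2 differed between the pools and MMP13 did not pass. MMP1, the collagenase with the highest level among them, stood at 95.3, 98.9 and 99.8 CPM in siYAP libraries, at 219, 131 and 211 CPM in siTAZ libraries and at 72.2, 109 and 73.1 CPM in siControl libraries. The siTAZ libraries were the highest, while siYAP and siControl libraries overlapped. MMP1 rose under siTAZ (log2 change 1.14 ± 0.18, adjusted p = 0.00133) and did not pass under siYAP. MMP2, a gelatinase that cuts basement membrane collagen, had 13.2, 11.3 and 12.6 CPM in siYAP libraries, 26.4, 24.2 and 30.8 CPM in siTAZ libraries and 8.83, 14.9 and 9.83 CPM in siControl libraries. It followed the same pattern, with a log2 change of 1.28 ± 0.17 under siTAZ (adjusted p = 0.000565). Another collagenase, MMP13, stayed between 1.70 and 3.54 CPM in the 9 libraries and passed under neither pool.

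Of the stromelysins, MMP10 moved in opposite directions. It had 3.26, 5.77 and 5.42 CPM in siYAP libraries, 21.6, 18.0 and 24.3 CPM in siTAZ libraries and 6.88, 12.0 and 8.03 CPM in siControl libraries. The 3 groups did not overlap, with siYAP lowest and siTAZ highest. MMP10 fell by 0.89 ± 0.23 under siYAP (adjusted p = 0.0197) and rose by 1.25 ± 0.21 under siTAZ (adjusted p = 0.00172). MMP11, which furin activates inside the cell, had 19.2, 16.9 and 20.3 CPM in siYAP libraries, 27.3, 22.6 and 31.9 CPM in siTAZ libraries and 7.51, 12.2 and 9.21 CPM in siControl libraries. It rose under both pools, by 0.97 ± 0.17 (adjusted p = 0.00287) and 1.5 ± 0.17 (adjusted p = 0.000325), and its 3 groups did not overlap either.

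**Figure D2:**
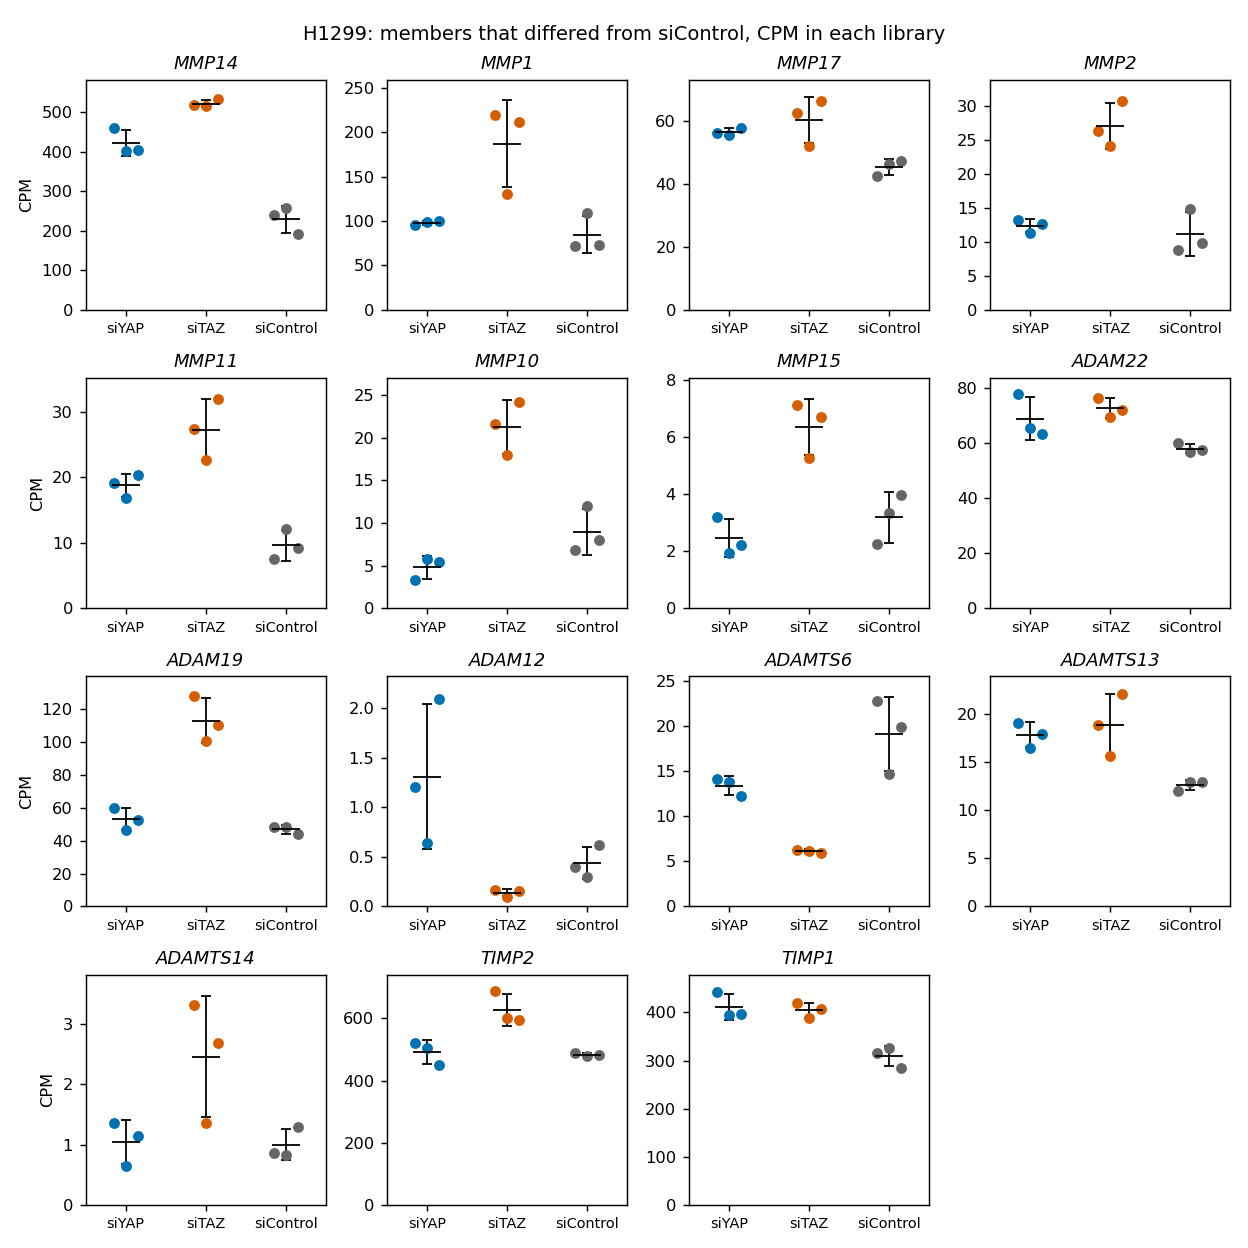
CPM of the 15 members called in a knockdown against siControl in H1299, in each library (points), with group mean and SD (bars, n = 3), vertical axes from 0. MMP1, MMP2, MMP15 and ADAM19 are high in siTAZ libraries alone, MMP14 and MMP11 are high with both pools, and MMP10 lies below control with siYAP and above it with siTAZ.

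Among ADAMs, ADAM19, a membrane protease able to release neuregulins, had the smallest adjusted p. It stood at 60.1, 46.7 and 52.4 CPM in siYAP libraries, at 128, 101 and 110.3 CPM in siTAZ libraries and at 48.5, 48.3 and 43.9 CPM in siControl libraries. All siTAZ libraries were above all others, and the log2 change under siTAZ was 1.27 ± 0.11 (adjusted p = 0.00022). ADAM22, a family member without protease activity known as a neuronal receptor, rose by 0.32 ± 0.09 under siTAZ (adjusted p = 0.0207). ADAM12 was barely expressed, with 24, 12 and 44 reads in siYAP libraries, 3, 2 and 3 reads in siTAZ libraries and 7, 5 and 11 reads in siControl libraries. It rose by 1.57 ± 0.44 under siYAP (adjusted p = 0.0259), and its change of -1.63 ± 0.67 under siTAZ did not pass (adjusted p = 0.0906). The general sheddases ADAM10 and ADAM17 and the abundant ADAM9 and ADAM15 passed under neither pool.

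ADAMTS6 fell under both pools in H1299. It had 14.2, 13.8 and 12.2 CPM in siYAP libraries, 6.31, 6.17 and 5.94 CPM in siTAZ libraries and 22.8, 14.7 and 19.9 CPM in siControl libraries. The 3 groups did not overlap, and the siTAZ libraries lay close together at the bottom. The log2 change was -0.52 ± 0.15 under siYAP (adjusted p = 0.0276) and -1.64 ± 0.16 under siTAZ (adjusted p = 0.00022). ADAMTS13, the protease of von Willebrand factor, had 19.1, 16.5 and 18.0 CPM in siYAP libraries, 18.9, 15.7 and 22.1 CPM in siTAZ libraries and 12.0, 12.9 and 12.9 CPM in siControl libraries. It was above control in every knockdown library, by 0.50 ± 0.13 (adjusted p = 0.0185) with siYAP and 0.58 ± 0.13 (adjusted p = 0.0069) with siTAZ. ADAMTS14, a procollagen N-proteinase, rose by 1.29 ± 0.36 under siTAZ (adjusted p = 0.0196) at 61, 27 and 53 reads, against 15, 14 and 23 reads in siControl libraries. ADAMTS3, a relative with the same role, did not pass under either pool.

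TIMP1 stood at 443, 395 and 397 CPM in siYAP libraries, at 419, 388 and 407 CPM in siTAZ libraries and at 316, 327 and 285 CPM in siControl libraries. It was above control in all knockdown libraries, with log2 changes of 0.41 ± 0.09 under siYAP (adjusted p = 0.00782) and 0.39 ± 0.09 under siTAZ (adjusted p = 0.00785). TIMP2, which also helps MMP14 to activate MMP2, had 521, 505 and 450.0 CPM in siYAP libraries, 687, 601 and 594 CPM in siTAZ libraries and 489, 477 and 483 CPM in siControl libraries. Its siTAZ libraries were the highest (0.38 ± 0.09, adjusted p = 0.0116), and the siYAP libraries overlapped the controls (0.03 ± 0.09, adjusted p = 0.877). TIMP3 and TIMP4 are listed for A549 alone.

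Leaving out a single library did not end the call of 11 of the 14 members called under siTAZ. TIMP2 was lost without siTAZ library 1, ADAMTS14 without siTAZ 1, siTAZ 3 or siControl 1, and ADAM22 without those or siControl 3. Under siYAP the calls of MMP14 and MMP11 held without any library, and the count of 8 fell to 2 without siYAP 1, to 4 without siYAP 3 or siControl 1, and to 5 without siControl 2 or siControl 3. TIMP1 was lost without siYAP 1 and MMP10 without siYAP 1 or siControl 2. ADAM12 was lost without siYAP 1, siYAP 3, siControl 1 or siControl 2, and ADAMTS6 and ADAMTS13 without siYAP 1, siYAP 3, siControl 1 or siControl 3. MMP17 was lost without siYAP 1, siYAP 3, siTAZ 1 or any siControl library. Same-numbered H1299 libraries tended to deviate together, and with the replicate number as a block 22 members differed under siTAZ, 19 higher and 3 lower. The block called 6 more as higher, ADAM17, ADAM23, MMP16, ADAMTS7, ADAMTS15 and ADAMTS20, and 2 more as lower, ADAM12 (-1.62, adjusted p = 0.0197) and ADAM11 (-0.38, adjusted p = 0.0142). Under siYAP it added ADAM22 and ADAM23. For ADAM23, also without protease activity, replicate 2 was the lowest library of every group. It had 56.3, 43.2 and 54.7 CPM in siYAP libraries, 58.9, 41.7 and 60.0 CPM in siTAZ libraries and 41.8, 32.1 and 48.6 CPM in siControl libraries.

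In library 2 of each H1299 pool more of the targeted mRNA remained than in libraries 1 and 3, and this library lay nearest the controls for most of the members that rose. It was the lowest siTAZ library for 12 of the 13 members that rose under siTAZ, against 56% of all genes that rose. It was the lowest siYAP library for all 6 members that rose under siYAP, against 70.7% of all genes that rose. Among the members that fell it was nearest the controls for 1 of 2 under siYAP (80.9% of all genes that fell) and for 0 of 1 under siTAZ (61.2%). The part of the remaining YAP1 and WWTR1 in these values was not tested.

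Set against each other in H1299, the pools differed in 11 of 34 members, against 11.7% of all genes tested, with 9 lower (6.1% of all genes) and 2 higher (5.6%) under siYAP than under siTAZ. MMP10 showed the largest difference among the MMPs (-2.14 ± 0.22, adjusted p = 0.000137). MMP15 (-1.37 ± 0.23), MMP2 (-1.13 ± 0.16), MMP1 (-0.93 ± 0.18) and MMP11 (-0.54 ± 0.16) were also lower under siYAP, as were ADAMTS14 (-1.21 ± 0.35), ADAM19 (-1.09 ± 0.11), TIMP2 (-0.35 ± 0.09) and ADAM17 (-0.31 ± 0.09). ADAM12 (3.20 ± 0.53, on the few reads given above) and ADAMTS6 (1.12 ± 0.16) were higher under siYAP. MMP14 differed by -0.30 ± 0.11 and did not pass (adjusted p = 0.0835), and TIMP1 differed by 0.03 ± 0.09. With the replicate number as a block MMP14 passed (-0.31, adjusted p = 0.0222), as did ADAM11 (0.36, adjusted p = 0.0259). MMP14 also passed by DESeq2 (adjusted p = 0.0456) and without siControl library 3 (adjusted p = 0.0481). The count fell to 7 without siYAP library 3 or siTAZ library 1, and both omissions ended the calls of TIMP2, ADAM17, ADAMTS14 and MMP11. ADAM17 and ADAMTS14 also fell out without siYAP 2 or siTAZ 3, and MMP11 without those, siYAP 1 or siControl 3.

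In H1299 the summed level of all 16 MMPs was 174 ± 6.4 CPM per kb of exon under siYAP, 258 ± 32.7 under siTAZ and 122 ± 18.2 under siControl (SD, n = 3). MMP14 and MMP1 made up most of it, with 45.3% and 36.8% of the sum under siTAZ and 42.2% and 35.3% under siControl. The sum of TIMP1 and TIMP2 was 355 ± 22.6 CPM per kb under siYAP, 374 ± 18.2 under siTAZ and 287 ± 13.8 under siControl. Per kilobase, the ratio of MMP14 to TIMP2 mRNA was 1.11, 1.01 and 1.14 in siYAP libraries, 0.953, 1.08 and 1.13 in siTAZ libraries and 0.618, 0.680 and 0.498 in siControl libraries, with no overlap between knockdown and control. The ratio of MMP1 to TIMP1 was 0.168, 0.196 and 0.197 in siYAP libraries, 0.409, 0.263 and 0.406 in siTAZ libraries and 0.179, 0.262 and 0.200 in siControl libraries. It was highest in the siTAZ libraries, and siYAP and siControl overlapped. The ADAM and ADAMTS sums stayed within 107 to 154 and within 7.81 to 10.4 CPM per kb in the 9 libraries. These sums and ratios rest on genes tested above and carry no test of their own.

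Markers of other cell types were followed beside these values, and several moved with the pools. The summed level of the fibroblast markers listed for H1299 (4 of 7, with COL1A2, COL3A1 and LUM not listed) was 9.82 to 12.9 CPM under siYAP, 8.98 to 11.5 CPM under siTAZ and 5.42 to 5.95 CPM under siControl. COL1A1 made up 50.5% to 56.7% of it. The endothelial markers (3 of 4 listed, CDH5 not) summed to 2.19 to 3.52 CPM under siYAP, 2.01 to 2.74 CPM under siTAZ and 1.13 to 1.89 CPM under siControl, so that both sums were higher in every knockdown library. The leukocyte markers listed (2 of 6, almost all of it ITGAM) summed to 1.33 to 2.46 CPM under siYAP, 3.86 to 7.46 CPM under siTAZ and 1.91 to 3.75 CPM under siControl, highest in the siTAZ libraries. The epithelial sum was 421 to 492 CPM under siYAP, 317 to 401 CPM under siTAZ and 396 to 444 CPM under siControl, with overlap between each pool and the controls. In A549 the fibroblast sum was 6.89 to 10.7 CPM under siYAP, 7.31 to 13.1 CPM under siTAZ and 4.84 to 8.83 CPM under siControl, and the epithelial sum 4244 to 5102, 3402 to 4577 and 4522 to 5810 CPM in the same order. The part of these markers in the changes of the members was not tested.

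Many members lie across other genes, and whether the authors' counting used strand is not given in the sources used here. Gene spans annotated on the opposite strand overlap 33 of the 50 members, 9 of the 14 called under siTAZ and 6 of the 8 called under siYAP in H1299. In A549 they overlap 12 of the 15 called under siTAZ, MMP2 and MMP24 among them, and 1 of the 3 called under siYAP. Such pairs are ADAM19 with CYFIP2 and NIPAL4, MMP11 with CHCHD10, ADAMTS13 with REXO4 and TIMP1 with SYN1. Where their exons overlap, which was not measured, counting without strand could not tell their reads apart. MMP14, MMP15, MMP17, ADAM22 and ADAMTS14 overlap no annotated gene. MMP1 and MMP10 share an antisense neighbour, WTAPP1, and stand 9.292 kb apart in a run of 5 members on chromosome 11 (MMP7, MMP10, MMP1, MMP12 and MMP13, from 102520508 to 102955734, GRCh38, all on the minus strand). Under siYAP in H1299 the 3 tested members of that run had log2 changes of -0.89 (MMP10, called), 0.21 (MMP1) and -0.28 (MMP13). Under siTAZ they had 1.25 (MMP10, called), 1.14 (MMP1, called) and -0.26 (MMP13).

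Promoter sequences were available for 30 of the 50 members, from RefSeq (GRCh38.p14), as 250 bases before and 50 after the gene start. They were searched on both strands for the TEAD motif GGAATG and for the AP-1 motif TGANTCA. Matches of these motifs can overlap, and in the members none did. The TEAD motif was in 5 of 30 member promoters (16.7%), against 14% of all 35116 promoters, and the AP-1 motif was in 3 of 30 (10%), against 7.71%. Of the 10 matched members called under siTAZ in H1299, 2 held the TEAD motif and 1 the AP-1 motif. Stretches are shown for the members on which the results turn, namely MMP10, which moved in opposite directions, ADAMTS6, which fell under both pools, MMP14, which rose under both, MMP7, the main MMP of A549, and ADAMTS12, the only member with both motifs. Each is written 5′ to 3′ on the gene's strand with matches in capitals, and the MMP14 stretch held no match.
MMP10 (chr11:102780629-102780778, minus strand, AP-1 match): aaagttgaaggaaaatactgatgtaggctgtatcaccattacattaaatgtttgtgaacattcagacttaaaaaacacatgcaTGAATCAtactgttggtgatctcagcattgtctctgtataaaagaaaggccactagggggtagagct
ADAMTS6 (chr5:65481921-65482170, minus strand, TEAD match): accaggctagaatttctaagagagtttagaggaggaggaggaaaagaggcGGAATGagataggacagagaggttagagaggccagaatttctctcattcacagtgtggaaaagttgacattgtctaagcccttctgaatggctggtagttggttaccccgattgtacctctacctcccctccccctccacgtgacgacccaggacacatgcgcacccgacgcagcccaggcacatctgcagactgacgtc
MMP14 (chr14:22836435-22836584, plus strand, no match): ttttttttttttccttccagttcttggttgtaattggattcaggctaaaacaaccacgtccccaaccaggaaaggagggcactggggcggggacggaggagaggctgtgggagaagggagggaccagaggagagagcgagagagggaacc
MMP7 (chr11:102530748-102530897, minus strand, AP-1 match): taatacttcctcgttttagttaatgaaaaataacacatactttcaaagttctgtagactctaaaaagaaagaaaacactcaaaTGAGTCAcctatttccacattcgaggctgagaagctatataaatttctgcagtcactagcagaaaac
ADAMTS12 (chr5:33891991-33892140, minus strand, TEAD and AP-1 matches): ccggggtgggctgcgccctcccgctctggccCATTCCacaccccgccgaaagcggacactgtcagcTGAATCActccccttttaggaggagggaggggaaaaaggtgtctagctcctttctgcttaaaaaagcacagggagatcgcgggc
The AP-1 matches of MMP10 and MMP7 both began 67 bases before the start. A match is a description of the letters in this window, and nothing here measured binding.

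In A549 most called changes were small, and MMP2, TIMP3, MMP1 and MMP16 were the called members with the largest ones. Under siTAZ, 15 of 37 members tested differed from siControl, or 40.5%, against 13.3% of all genes tested, 13 higher (7.21% of all genes) and 2 lower (6.12%). By family these were 5 of 11 MMPs (4 higher, 1 lower), 5 of 12 ADAMs (4 higher, 1 lower), 2 of 10 ADAMTS genes and 3 of 4 TIMPs, all higher. The median log2 change was 0.14 over the tested members and 0.0028 over all genes. Under siYAP 3 of 37 differed, or 8.11%, against 5.68% of all genes, 1 higher (2.5%) and 2 lower (3.17%). The medians were 0.04 over the members and 0.0038 over all genes. These calls rest on differences within replicate numbers: without the block edgeR called 0 members in each of the A549 comparisons, with 3 members under siYAP and 6 under siTAZ at an unadjusted p under 0.05, and DESeq2 without it also called 0. DESeq2's Wald test with the block called 1 member under siYAP and 5 under siTAZ.

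MMP2 rose under siTAZ in A549 as in H1299. It had 5.57, 4.72 and 11.1 CPM in siYAP libraries, 9.76, 8.91 and 17.8 CPM in siTAZ libraries and 5.44, 4.74 and 9.97 CPM in siControl libraries. Replicate 3 was the highest in every group, so the groups overlapped, but the siTAZ library was above the same-numbered control in 3 of 3 pairs. The log2 change under siTAZ was 0.86 ± 0.09 (adjusted p = 2.1e-08). MMP24, a membrane-anchored MMP known mainly from the nervous system, had 32.7, 32.2 and 52.8 CPM in siYAP libraries, 26.1, 23.9 and 46.7 CPM in siTAZ libraries and 33.6, 34.3 and 55.04 CPM in siControl libraries. It was lower in 3 of 3 siTAZ pairs and fell by 0.37 ± 0.06 (adjusted p = 8.1e-06). MMP17 rose under siTAZ by 0.23 ± 0.07 (adjusted p = 0.0191), at 23.0, 19.7 and 21.1 CPM against 20.3, 16.8 and 16.9 CPM in siControl libraries, and the groups overlapped. MMP1 (0.83 ± 0.28, adjusted p = 0.0427) and MMP16 (0.70 ± 0.24, adjusted p = 0.0455) also rose, at no more than 2.09 CPM in any library. MMP7 had 329.6, 304 and 364 CPM in siYAP libraries, 342, 309.9 and 366 CPM in siTAZ libraries and 298, 321 and 401 CPM in siControl libraries, and did not pass under either pool.

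Under siYAP in A549, MMP15 had 25.9, 22.6 and 34.8 CPM, against 30.1, 28.2 and 39.2 CPM in siControl libraries and 30.3, 26.9 and 42.8 CPM in siTAZ libraries. The siYAP library was the lowest of its replicate number in all 3 sets, and MMP15 fell by 0.25 ± 0.06 against siControl (adjusted p = 0.00453). ADAMTS12, which degrades a cartilage matrix protein, had 4.15, 3.14 and 3.66 CPM in siYAP libraries and 6.17, 4.26 and 5.18 CPM in siControl libraries, without overlap, and fell by 0.49 ± 0.13 (adjusted p = 0.0167). Its siTAZ libraries, at 4.51, 3.92 and 4.60 CPM, overlapped the controls. ADAMTS10 had 44.2, 41.8 and 49.5 CPM in siYAP libraries, 44.2, 43.8 and 46.1 CPM in siTAZ libraries and 38.7, 37.2 and 44.0 CPM in siControl libraries. It rose by 0.18 ± 0.05 under siYAP (adjusted p = 0.0316) and by 0.17 ± 0.05 under siTAZ (adjusted p = 0.0211), higher in 3 of 3 pairs each time.

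**Figure D3:**
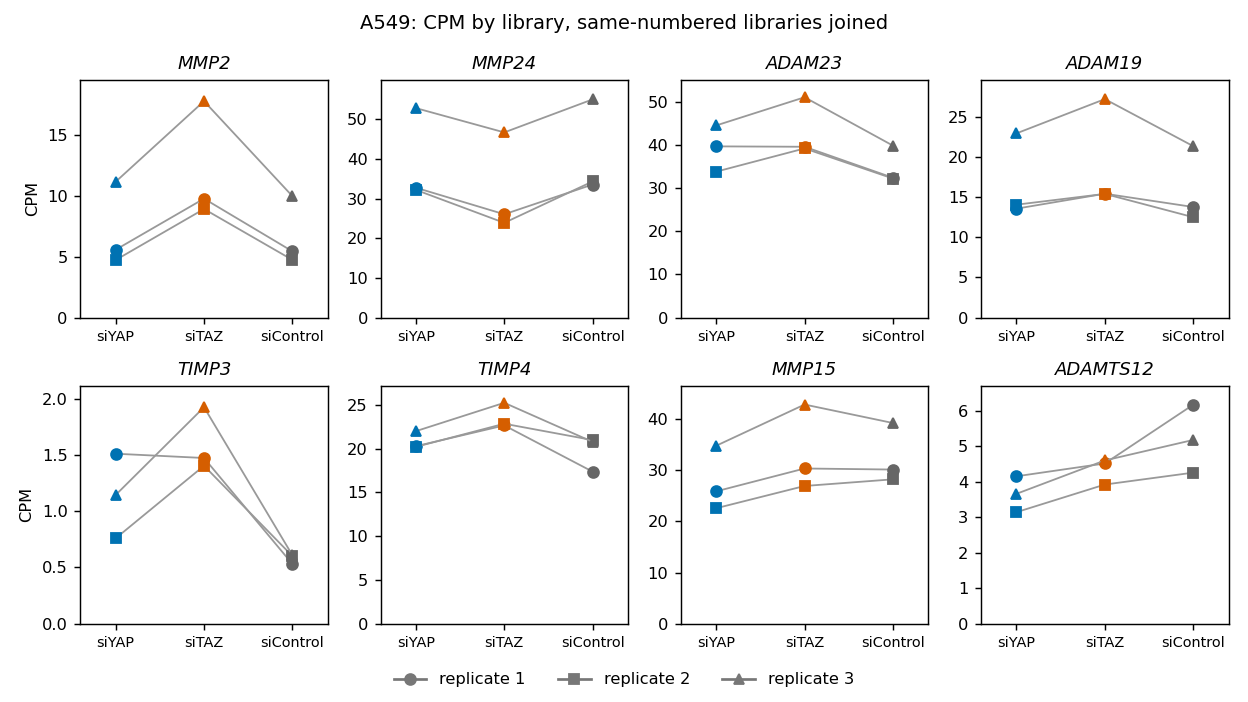
CPM in each A549 library for 8 members, with lines joining libraries of the same replicate number (circle, square and triangle for replicates 1, 2 and 3) and vertical axes from 0. Replicate 3 lies above replicates 1 and 2 in every group for MMP2, MMP24, ADAM23, ADAM19 and MMP15, and within each replicate MMP2 is higher and MMP24 lower in siTAZ than in siControl.

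Of the 4 inhibitors, 3 rose under siTAZ in A549. TIMP3, which binds to matrix and also inhibits ADAM17, had 16, 35 and 20 reads in siYAP libraries, 30, 34 and 46 reads in siTAZ libraries and 8, 25 and 8 reads in siControl libraries. Scaled, these are 1.51, 0.758 and 1.14 CPM with siYAP, 1.47, 1.40 and 1.92 CPM with siTAZ and 0.531, 0.601 and 0.609 CPM with siControl. All knockdown libraries were above the controls, with a log2 change of 1.35 ± 0.27 under siTAZ (adjusted p = 0.000447) and 0.71 ± 0.29 under siYAP, which did not pass (adjusted p = 0.163). TIMP4 had 20.3, 20.2 and 22.0 CPM in siYAP libraries, 22.7, 22.9 and 25.3 CPM in siTAZ libraries and 17.4, 21.0 and 20.8 CPM in siControl libraries. Its siTAZ libraries lay above the controls, by 0.24 ± 0.06 (adjusted p = 0.0102). TIMP1 had 168, 160.0 and 209 CPM in siYAP libraries, 171, 179 and 220.5 CPM in siTAZ libraries and 162, 164.5 and 188 CPM in siControl libraries, and rose by 0.14 ± 0.04 under siTAZ (adjusted p = 0.0154). TIMP2 had 313, 265 and 486.5 CPM in siYAP libraries, 327, 281 and 576 CPM in siTAZ libraries and 313, 291 and 483 CPM in siControl libraries, and passed under neither pool. The gene of TIMP1 lies within SYN1, that of TIMP3 within SYN3 and that of TIMP4 within SYN2, each on the opposite strand.

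ADAMs and ADAMTS genes of A549 moved by small amounts under siTAZ. ADAM23 had 39.6, 33.8 and 44.5 CPM in siYAP libraries, 39.5, 39.2 and 51.0 CPM in siTAZ libraries and 32.4, 32.2 and 39.8 CPM in siControl libraries, and rose by 0.30 ± 0.05 under siTAZ (adjusted p = 7.8e-05). ADAM19 had 13.6, 14.1 and 23.0 CPM in siYAP libraries, 15.5, 15.4 and 27.3 CPM in siTAZ libraries and 13.8, 12.5 and 21.4 CPM in siControl libraries, and rose by 0.29 ± 0.07 (adjusted p = 0.00308). Both were higher than the same-numbered control in 3 of 3 siTAZ pairs, with replicate 3 the highest in each group. ADAM22 rose by 0.34 ± 0.10 (adjusted p = 0.018), at 8.34, 8.01 and 7.86 CPM against 6.17, 6.42 and 6.32 CPM in siControl libraries, and ADAMTS15, which cuts matrix proteoglycans, by 0.36 ± 0.10 (adjusted p = 0.0109), at 8.05, 10.2 and 8.03 CPM against 6.30, 7.72 and 6.32 CPM. Neither pair of groups overlapped. ADAM17, the sheddase of tumour necrosis factor, rose by 0.13 ± 0.04 (adjusted p = 0.0364). ADAM9 fell by 0.15 ± 0.04 (adjusted p = 0.00691), with 650.0, 577 and 612 CPM in siTAZ libraries against 706, 638 and 698 CPM in siControl libraries, lower in 3 of 3 pairs.

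Between the pools, 7 of 37 members differed in A549, against 7.04% of all genes tested (2.52% higher, 4.52% lower). MMP2 (-0.79 ± 0.09, adjusted p = 1.6e-07), MMP15 (-0.27 ± 0.06), ADAMTS2 (-1.05 ± 0.32, with no more than 57 reads in any library), ADAMTS9 (-0.33 ± 0.09) and ADAM17 (-0.14 ± 0.04) were lower under siYAP than under siTAZ, and MMP24 (0.30 ± 0.06) and ADAM12 (0.39 ± 0.12) were higher. Of the A549 calls, single libraries decided many. Under siTAZ the calls of MMP2, MMP24, ADAM23 and TIMP3 held without any 1 library, and the count of 15 fell to 6 without siTAZ library 2, to 8 without siTAZ 1 or siControl 1 and to 9 without siControl 2. Under siYAP the count of 3 fell to 0 without siYAP 2 or siControl 2 and to 1 without siYAP 3 or siControl 1, with 7 to 10 members then at an unadjusted p under 0.05 where edgeR called 0, and DESeq2 also called 0 there. Between the pools it fell to 3 without siYAP 2 or siTAZ 1 and to 4 without siYAP 3 or siTAZ 3.

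**Figure D4:**
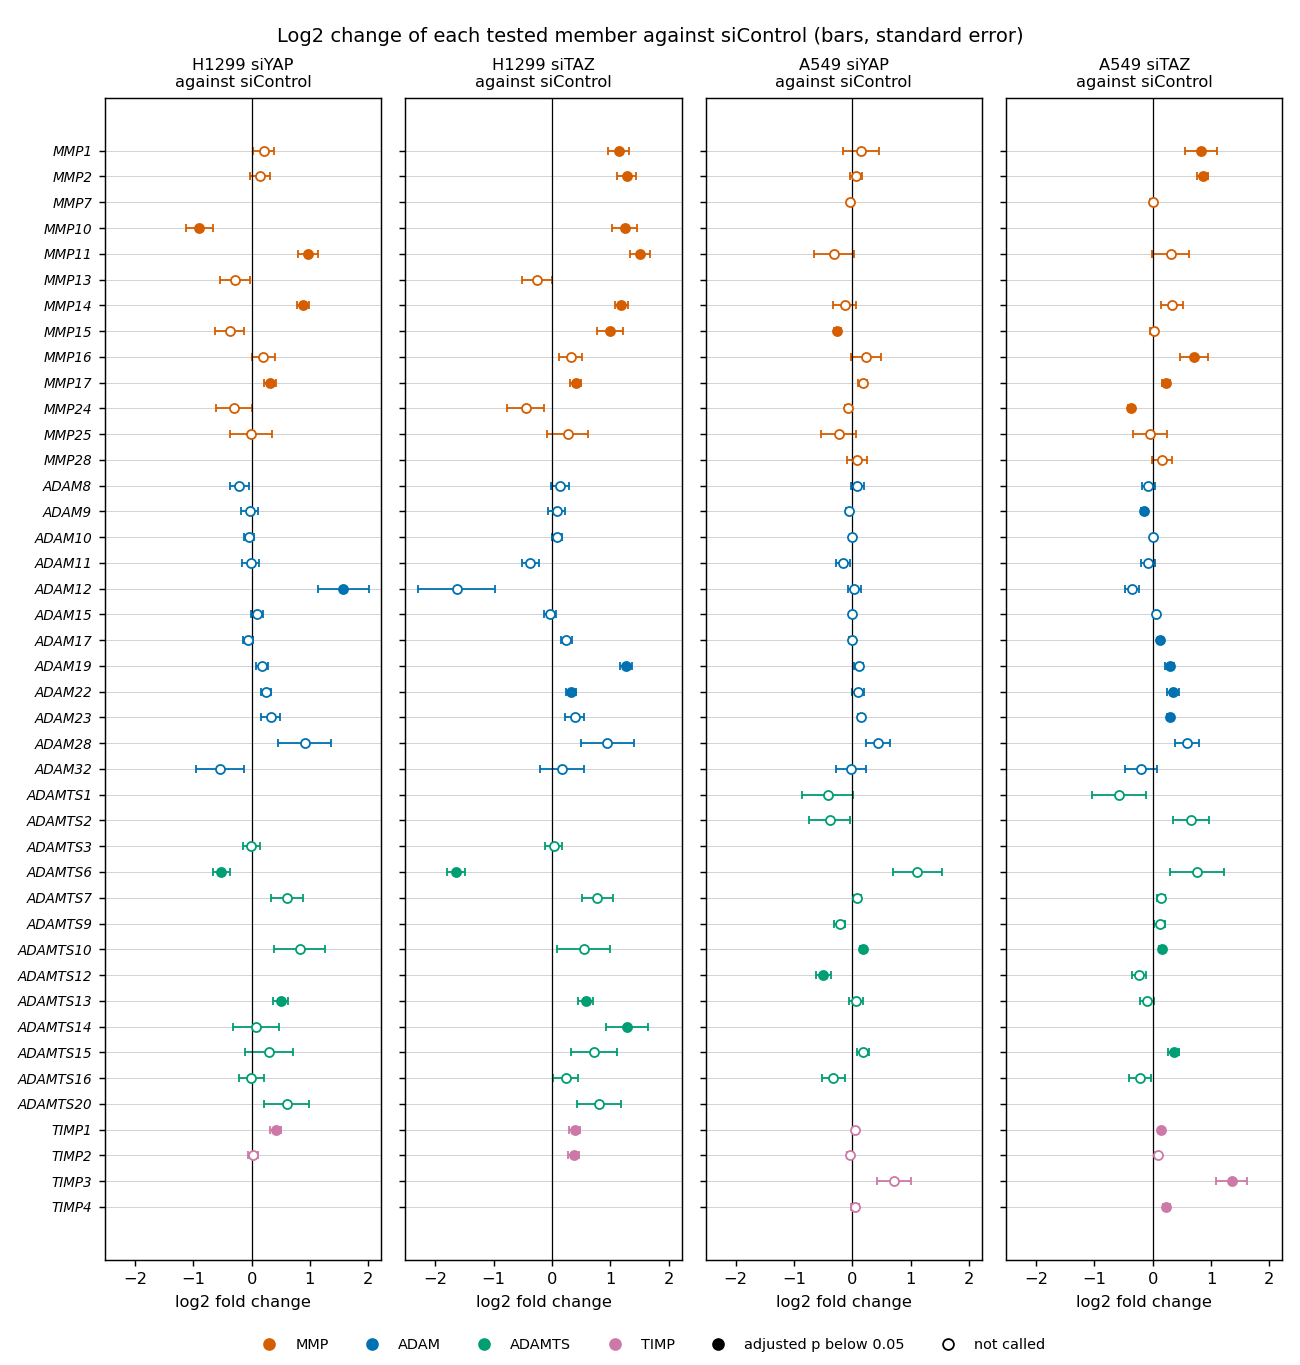
Log2 change against siControl with its standard error (bars) of every member tested in a line, by family (colours), for siYAP and siTAZ in H1299 and in A549. Filled points passed at an adjusted p below 0.05; in H1299 siTAZ the MMPs gather right of 0 with ADAMTS6 far to the left, and in A549 most points lie near 0 with TIMP3, MMP2, MMP1 and MMP16 furthest right among the filled ones.

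Of the 29 members tested in each line on its own, siTAZ called 12 in H1299 and 13 in A549, and 6 were called in both, each higher: MMP1, MMP2, MMP17, ADAM19, ADAM22 and TIMP1. That is 50% of the H1299 calls and 46.2% of the A549 calls, against 24.9% and 46.5% over all 14027 genes tested in each line. With siYAP, 7 were called in H1299 and 2 in A549, with none in common, against 17.7% of the H1299 and 55.3% of the A549 calls over all genes. These counts are too small to set the members apart from all genes. Of the 6 shared siTAZ calls, only that of MMP2 held in both lines without any 1 library. The size of the change was tested between the lines in a joint fit of 33 members. With siYAP 2 members differed, 1 in each direction, against 2.26% of all genes tested (0.955% higher and 1.31% lower in H1299). MMP14 responded more in H1299, by 1.02 ± 0.22 (adjusted p = 0.023): its log2 change was 0.88 in H1299 and -0.13 in A549, where 31, 86 and 16 reads were counted in siControl libraries. ADAMTS6 had a log2 change of -0.52 in H1299 and 1.11 in A549, a difference of -1.63 ± 0.42 (adjusted p = 0.0474), with 2 to 22 reads in the A549 libraries. With siTAZ 5 members differed, against 5.96% of all genes (2.73% higher, 3.24% lower). ADAM19 (0.98 ± 0.14, adjusted p = 0.00169), MMP15 (0.97 ± 0.22, adjusted p = 0.0164), MMP14 (0.86 ± 0.21, adjusted p = 0.0254) and ADAMTS13 (0.68 ± 0.20, adjusted p = 0.0452) rose more in H1299, and ADAMTS6 differed by -2.41 ± 0.46 (adjusted p = 0.00733). The calls of ADAM19 and ADAMTS6 with siTAZ held without any 1 library. That of MMP15 ended without H1299 siControl 1 or replicate 1 or 2 of A549 siTAZ or siControl, and that of MMP14 without H1299 siTAZ 3 or any A549 siTAZ or siControl library. ADAMTS13 lost its call without replicate 1 or 3 of H1299 siTAZ or siControl, or without any A549 library but siTAZ 3. With siYAP the call of MMP14 ended without H1299 siYAP 1 or 3 or any A549 siYAP or siControl library, and that of ADAMTS6 without any A549 library, replicate 1 or 3 of H1299 siYAP or siControl, or H1299 siTAZ 3. The siYAP count then ran from 0 to 4 and the siTAZ count from 2 to 7. Where edgeR called 0, 5 to 7 members had an unadjusted p under 0.05 and DESeq2 called 1 to 3. With replicate blocks in both lines ADAM12 (1.55) and TIMP1 (0.36) also passed with siYAP, and TIMP2 (0.28) and TIMP1 (0.24) with siTAZ. The siTAZ responses of MMP1 and MMP2 did not pass the test of a difference between lines. That of MMP2 passed without H1299 siControl 2 (0.70, adjusted p = 0.0117 in edgeR). By DESeq2, MMP11 passed with siYAP (1.30, adjusted p = 0.0271) and with siTAZ (1.16, adjusted p = 0.0283).

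Partners and opponents of these enzymes were followed as lists chosen with earlier results of the same data known. Their counts are to be read against the shares of all genes called, 16.6% under siYAP (7.89% higher, 8.75% lower) and 23.3% under siTAZ (10.9% higher, 12.4% lower) in H1299, and 5.68% (2.5% higher, 3.17% lower) and 13.3% (7.21% higher, 6.12% lower) in A549. With 6 to 21 genes tested per list, nothing particular to a list is read from its count. In the plasminogen system and the convertases, 2 of 10 tested genes rose under siYAP and 5 of 10 under siTAZ in H1299, with none lower. SERPINE2, an inhibitor of serine proteases, rose by 0.82 ± 0.16 and 1.15 ± 0.16, and LRP1, the receptor that clears protease and inhibitor complexes, by 1.09 ± 0.14 and 0.53 ± 0.14. PLAT, tissue plasminogen activator, rose under siTAZ by 0.45 ± 0.08. In A549, 2 of 13 passed under siYAP (1 in each direction) and 7 of 13 under siTAZ (4 higher, 3 lower). LRP1 rose by 0.16 ± 0.04 with siYAP and by 0.31 ± 0.04 with siTAZ, and the convertase gene PCSK5 rose by 0.49 ± 0.08 with siTAZ. Of other regulators of metalloproteinases, 3 of 9 passed under siYAP in H1299, RECK, a membrane inhibitor of MMPs, higher (0.49 ± 0.11), and TFPI2 (-0.88 ± 0.20) and THBS1 (-1.05 ± 0.33) lower, and 1 of 9 under siTAZ, SPOCK3 (1.51 ± 0.31). In A549, TFPI2, a protease inhibitor deposited in matrix, was the 1 of 11 that passed under siYAP (-0.40 ± 0.05) and fell by 1.07 ± 0.05 under siTAZ, where SPOCK3 rose by 1.03 ± 0.30.

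Of 9 partners of ADAM10 and ADAM17, 4 passed under siYAP in H1299 (3 higher, 1 lower) and 3 under siTAZ, all higher. FRMD8, which stabilises ADAM17 at the cell surface, fell by 0.53 ± 0.10 with siYAP, the ADAM10 escorts TSPAN15 and TSPAN10 rose by 0.48 ± 0.10 and 0.94 ± 0.21, and with siTAZ RHBDF2, which carries ADAM17 to the surface, rose by 0.51 ± 0.10, TSPAN14 by 0.28 ± 0.08 and TSPAN10 by 0.66 ± 0.21. In A549, 1 of 9 passed under siTAZ (TSPAN15, 0.18 ± 0.04), and edgeR called 0 under siYAP, with 1 at an unadjusted p under 0.05. Of the substrates of ADAMs, 4 of 20 rose under siYAP in H1299, among them IL6R (0.98 ± 0.22), TNFRSF1A (0.34 ± 0.09) and NOTCH3 (0.81 ± 0.22), and 5 of 20 under siTAZ, among them the Notch ligand DLL1 (1.19 ± 0.17), TNFRSF1B (1.17 ± 0.25) and TNFRSF1A (0.35 ± 0.09). In A549, 2 of 21 passed under siYAP, CDH1 (0.22 ± 0.05) and EREG (-0.18 ± 0.06), and 7 of 21 under siTAZ (5 higher, 2 lower), among them NOTCH3 (0.50 ± 0.04), IL6R (0.34 ± 0.05) and L1CAM (0.26 ± 0.07). Of the substrates of ADAMTS enzymes, 2 of 8 rose under siYAP in H1299, COL1A1 (1.14 ± 0.18) and FBN1 (0.44 ± 0.11), and 3 of 8 under siTAZ, those 2 (0.83 ± 0.18 and 0.44 ± 0.11) and VWF (1.81 ± 0.49). VWF is also 1 of the endothelial markers above, which together summed to 1.13 to 1.89 CPM in H1299 siControl libraries, so its change starts from a low level. In A549, COL1A1 was the 1 of 6 that passed under siYAP (0.48 ± 0.11), and under siTAZ 3 of 6 rose, VCAN (0.29 ± 0.04), COL1A1 (0.70 ± 0.11) and FBN1 (0.33 ± 0.06), and 1 fell.

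Relatives outside the families passed in 4 of 10 cases under siYAP in H1299, all higher, with THSD4 (1.03 ± 0.13), PAPLN (0.62 ± 0.14) and ADAMTSL5 (0.38 ± 0.09) first, and in 1 of 10 under siTAZ, TLL1 (1.46 ± 0.46). In A549, 2 of 9 rose under siTAZ, the endothelin-converting enzyme ECE1 (0.19 ± 0.04) and the procollagen C-proteinase BMP1 (0.15 ± 0.04), and edgeR called 0 of 9 under siYAP, with 2 at an unadjusted p under 0.05. Of 12 AP-1 and ETS factors, 4 passed under siYAP in H1299 (2 in each direction), with ETS1 (-0.44 ± 0.11) and FOSB (-0.83 ± 0.21) lower and ETV1 (0.36 ± 0.09) higher. Under siTAZ 5 passed (2 higher, 3 lower), with ETS1 (-0.69 ± 0.11) and FOSL1 (-0.86 ± 0.19) lower and JUNB (0.64 ± 0.13) higher. In A549, 7 of 12 rose under siTAZ, led by ETS2 (0.36 ± 0.05), JUND (0.29 ± 0.04) and FOS (0.65 ± 0.09), and edgeR called 0 of 12 under siYAP, with 3 at an unadjusted p under 0.05. The medians of the 7 lists ranged from -0.05 to 0.50 under siYAP and from -0.05 to 0.32 under siTAZ in H1299, and from -0.05 to 0.08 and from 0.05 to 0.17 in A549, beside the all-gene medians given above.

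The remaining members were too low to test within a line. In H1299 these were MMP7, MMP9, MMP12, MMP19, MMP28, ADAM21, ADAMTS8, ADAMTS18 and ADAMTS19, with at most 15 reads in any library, and in A549 MMP10, MMP12, MMP13, MMP19, ADAM21, ADAMTS8 and ADAMTS17, with at most 13. For these no knockdown effect could be tested within that line at this depth, where 3 reads in an H1299 library are 0.143 to 0.179 CPM and in an A549 library 0.0650 to 0.283 CPM. MMP7, MMP10, MMP13 and MMP28 were tested in the joint fit of both lines, where each differed between the controls. MMP9, the second gelatinase, thus had 2 to 15 reads per H1299 library and is not listed for A549.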

How the data were processed

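RNA-seq was analysed from the authors' 2 tables, 1 per cell line. The deposited read counts per gene are whole numbers that the authors made from poly(A) RNA. The submitters' processing notes name cutadapt, STAR 2.4.2a, DESeq2 and GRCh38, without roles. Neither the counting tool nor its annotation and strand setting is given in the sources used here. Other columns were not used as measurements: normalized counts (a signal that the authors scaled per library), log2 values that the authors transformed (H1299) or, per the file headers, adjusted with combat (A549), and the authors' log2 fold changes and p-values. Each table lists genes with at least 6 reads in some library, a property checked on the files.

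Symbols were matched to GENCODE 29 for exon length and overlaps. Exon length is that of all annotated exons of a gene merged, such as 16168 bases for ADAM10 and 6584 for ADAM15. It can exceed the length of the mRNA made, and orders, sums and ratios per kilobase depend on it. Read counts were fitted per line with edgeR 4.0.16 in R 4.3.3 (filterByExpr, TMM, quasi-likelihood F test) over all genes, with Benjamini-Hochberg adjustment and calls at an adjusted p below 0.05. H1299 was fitted without and A549 with the replicate number as a block. These are the designs with which DESeq2 1.42.0 returned the authors' own log2 fold changes within 0.001 for at least 99.99% of genes. Numbers come from the sample titles. The correlation of deviations from group means was 0.108 to 0.383 between same-numbered libraries in H1299 and 0.384 to 0.729 in A549. Between differently numbered libraries it was -0.324 to 0.16 in H1299, which overlaps, and -0.55 to 0.279 in A549. Blocked counts therefore stand beside results that they move. Differences between lines came from 1 fit of all 18 libraries. CPM are TMM-scaled reads, and errors of log2 changes are the change divided by the square root of F. The procedure was also run on simulated counts. These held no replicate effect, so they do not bear on the A549 calls that rest on the block.

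The members were chosen by symbol and not by any measured value. Earlier results of these data were known when the members and the lists were set. Every member called after a knockdown or between the pools is named, those averaging 5 CPM or more and changing most with all values, the TIMPs always, and 3 genes per list by smallest adjusted p. Alternatives were the block, DESeq2's test and size factors, the filter on low counts, the groups in the fit, and libraries left out. A search of the member proteins for motifs was not run, and some genes that the rule or the marker lists would name are not reported here.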

Additional observations from a re-analysis of the deposited data

Results flagged for a closer look

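The knockdown effects of 5 members differed between H1299 and A549 by the test of that difference (edgeR, adjusted p over all genes). With siYAP, MMP14 differed by 1.02 ± 0.22 (log2, H1299 minus A549, SE; adjusted p = 0.023) and ADAMTS6 by -1.63 ± 0.42 (adjusted p = 0.0474). With siTAZ, ADAM19 differed by 0.98 ± 0.14 (adjusted p = 0.00169), MMP15 by 0.97 ± 0.22 (adjusted p = 0.0164), MMP14 by 0.86 ± 0.21 (adjusted p = 0.0254), ADAMTS13 by 0.68 ± 0.20 (adjusted p = 0.0452) and ADAMTS6 by -2.41 ± 0.46 (adjusted p = 0.00733). The values of ADAMTS6 rest on 2 to 22 reads per A549 library. Line, medium and experiment cannot be told apart in these differences.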

How the results depend on the processing

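For the called members, the TIMPs, YAP1 and WWTR1, 2585 values of single genes were recomputed under an alternative. Of these, 2220 kept their side of the threshold, 331 lost and 34 gained significance, and 0 of those called in the main fit reversed. A change of sign was not counted for values not called there, such as TIMP2 under siYAP in H1299 (-0.03 to 0.09). As this set holds mostly called genes, it shows few gains; over all members 74 calls were gained, by 19 genes. With the replicate block, H1299 called 22 members under siTAZ, and 4461, 5606 and 3399 of all genes under siYAP, under siTAZ and between the pools (2625, 3680 and 1846 without). The block changed no other count of H1299 members by over 1.5 times. Without the block, A549 called 0, 0 and 0 members in these comparisons (3, 6 and 2 at an unadjusted p under 0.05 in edgeR, 0 in each by DESeq2), and 1, 1 and 2 of all genes. With the block, DESeq2 called 1, 5 and 3 members and 377, 1132 and 525 of all genes, against 909, 2134 and 1127 in edgeR. Between lines, no block gave 0 members with siYAP (4 unadjusted, 1 by DESeq2) and 1 with siTAZ, and 13 and 60 of all genes. Blocks in both lines gave 4 and 7 members, and 1712 and 2797 of all genes. DESeq2 gave 4 and 6 members, and 749 of all genes with siYAP. Without replicate 3 of every A549 group, chosen after seeing the data, the counts were 0 (5 unadjusted, 1 by DESeq2) and 1 member, and 25 and 99 of all genes, against 358 and 943. With libraries or a replicate number left out, members called ran from 1 to 11 under siYAP, 4 to 17 under siTAZ and 3 to 11 between the pools in H1299, and from 0 to 3, 5 to 15 and 3 to 10 in A549. Between lines they ran from 0 to 4 with siYAP, 2 to 7 with siTAZ and 28 to 30 for controls. All genes called ran from 34 to 4430, 144 to 5267 and 190 to 2945 in H1299, from 157 to 1027, 940 to 2142 and 289 to 1276 in A549, and from 46 to 1373 with siYAP and 222 to 2025 with siTAZ between lines. Fewer libraries enter these fits, and the cause of the other shifts was not tested. Depth limits the low members, such as ADAM12 in H1299 and TIMP3, MMP1 and MMP16 in A549.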
